A study of Drosophila melanogaster with 2 samples.

Results

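The weaker peaks of the Oli ChIP-seq in Drosophila melanogaster embryos that lay outside coding exons and returned in both replicates numbered 8596, or 28.7% of the 30000 peaks called on the pooled replicates. A pooled peak was taken as a member of this set if it overlapped no peak of the list that passed the irreproducible discovery rate (IDR) threshold, if its summit lay within 100 bp of a summit in each replicate's own list, and if that summit was not in a coding exon. Overlap with the 6496 IDR peaks removed 7508 pooled peaks and coding exons another 1371, which left 21121 weaker non-coding peaks. Of these, 8596 (40.7%) recurred in both replicates, 5553 in replicate 1 only, 4701 in replicate 2 only and 2271 in neither. The 12525 that did not recur in both serve below as the other weaker non-coding peaks. The members were thus chosen by their pooled signal, through the IDR list, and by summit positions in both replicates, and those values are given as a description, with no test.

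The data come from 1 group of 2 biological replicates, each made from whole embryos of mixed sex aged 6 to 18 hours. All embryos came from 1 transgenic line in which GFP is fused to the C terminus of Oli, and an anti-GFP antibody was used to pull down the bound chromatin. No embryos without the fusion protein were among the samples used here, and whole embryos do not show in which cells a site was occupied. The number of reads behind each peak is unknown.

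Oli is the fly relative of the vertebrate Olig factors, which act in motor neurons and oligodendrocytes, and like them it has a basic helix-loop-helix (bHLH) domain. Factors of this class bind DNA as dimers at E-boxes, 6-base sites that begin with CA and end with TG. In a ChIP-seq experiment the summit of a peak marks where the precipitated fragments pile up most. Sites low in the ranking can hold weak or rare binding as well as background, which is why recurrence in a second replicate is asked for.

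The reference sequence within 50 bp of the summit is shown for 4 of the 5 members with the highest pooled signal, in dm6 and on the plus strand, because the sequence results below turn on short words in these windows. Capitals mark CACTG on either strand, the palindrome GTGCAC, and the word AATATA on either strand. The last line is the flank of the Vha68-3 summit, an equally wide window with its centre 500 bp to the right, with which that summit is compared.
Vha68-3 (chr2L:12982190-12982290): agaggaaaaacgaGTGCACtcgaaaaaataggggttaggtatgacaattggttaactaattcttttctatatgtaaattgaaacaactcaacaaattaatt
Nlg1 (chr3R:7668025-7668125): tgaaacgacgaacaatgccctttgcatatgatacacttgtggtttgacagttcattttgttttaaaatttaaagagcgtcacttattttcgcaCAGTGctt
Prx1 (chr3L:15209052-15209152): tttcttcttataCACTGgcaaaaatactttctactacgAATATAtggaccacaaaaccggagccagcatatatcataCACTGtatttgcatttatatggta
CG12672 (chrX:18004336-18004436): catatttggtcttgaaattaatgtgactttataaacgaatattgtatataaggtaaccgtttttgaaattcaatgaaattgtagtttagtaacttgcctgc
Vha68-3 flank (chr2L:12982690-12982790): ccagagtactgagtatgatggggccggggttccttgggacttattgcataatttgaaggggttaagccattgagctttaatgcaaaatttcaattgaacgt

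Their GC content was 29.7% at Vha68-3, 35.6% at Nlg1, 33.7% at Prx1 and 27.7% at CG12672, and 42.6% in the Vha68-3 flank. Vha68-3 encodes a subunit of the vacuolar proton pump, Nlg1 a neuroligin, which is a synaptic adhesion protein, and Prx1 a peroxiredoxin. Sequence came from NCBI RefSeq, release 6 of the fly genome, which is the dm6 assembly.

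Most members stood in the middle or lower ranks of both replicates. Their pooled signal, the value deposited with each peak, ran from 43.9 to 154.8 with a median of 85.2. Their pooled rank ran from 6497 to 29836. The pooled -log10 q-value, which is lower for less certain peaks, ran from 0.113 to 2.61 in members. Its median there was 0.758, with quartiles of 0.413 and 1.35. The lowest value among IDR peaks was 2.59, so most members lay below every IDR peak. The other weaker non-coding peaks had a median of 0.220. Recurrence therefore does not make each member a called binding site. In replicate 1 the matching peak had a signal between 27.0 and 226.1 with a median of 45.6. In replicate 2 it lay between 20.1 and 204.8 with a median of 35.9. Replicate signals come from separate lists and their sizes were not compared. Beyond the first 6496 ranks of both replicates lay 7877 members (91.6%), while 248 were within them in replicate 1 only, 466 in replicate 2 only and 5 in both. Across the 8596 members, Pearson's r of log2 signal between replicates was 0.409 and Spearman's rho 0.426. This is a description across peaks whose lists share a control, and the rule had already removed the strongest sites.

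The replicate summits usually stood close to the pooled one, with a median distance of 24 bp in replicate 1 and 26 bp in replicate 2. Both distances were at most 10 bp for 1017 members (11.8%), and the larger one was over 50 bp for 3607 (42.0%). For scale, 4.50% of the 6 chromosomes lay within 100 bp of a replicate 1 summit, the same share within 100 bp of a replicate 2 summit, and 2.10% within reach of both. The pooled peaks were called on these same replicates, so their summits are not independent of the replicate summits. These shares of bases are therefore no chance level for recurrence. The most unequal members stood near nop5, a small nucleolar ribonucleoprotein gene, and bon, a gene of a transcriptional cofactor. The nop5 peak (2L, summit 6919199) had a signal of 226.1 and rank 2148 in replicate 1, and of 24.0 and rank 23421 in replicate 2. The bon peak (3R, summit 20595070) had 54.4 and rank 11532 in replicate 1, and 204.8 and rank 1977 in replicate 2. Each was therefore among the strong peaks of 1 replicate and near the bottom or the middle of the other.

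**Figure D1:**
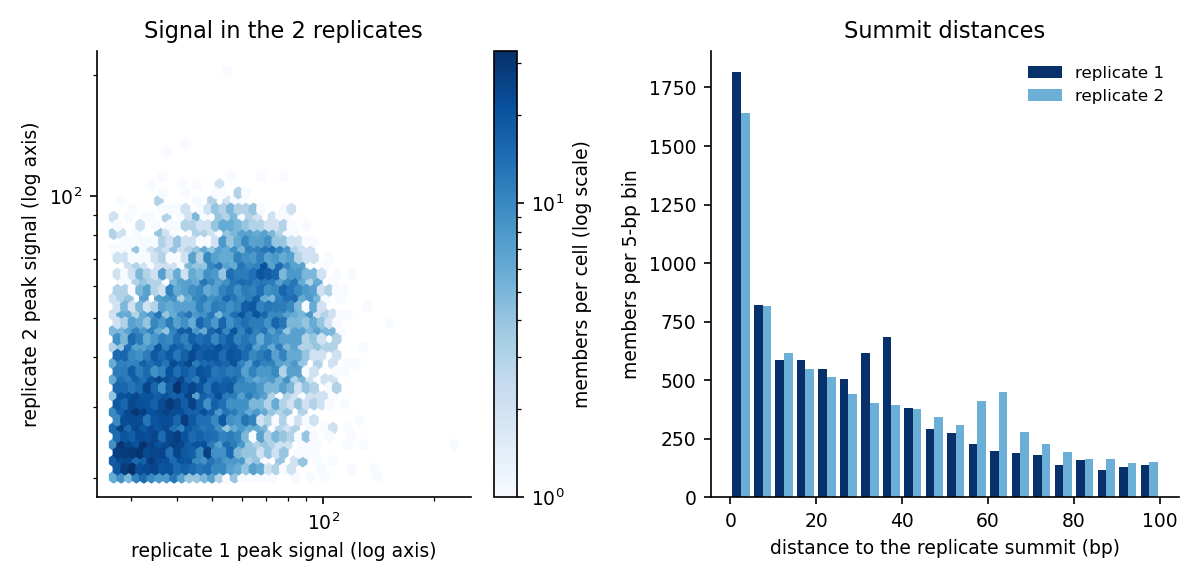
Left, signal of the matching peak in replicate 1 (x, log axis) and replicate 2 (y, log axis) for all 8596 members, with darker cells holding more members. Right, number of members per 5-bp bin of the distance from the pooled summit to the replicate summit; the lowest bin is the fullest in both replicates and the medians are 24 and 26 bp.

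At the edge of the rule, the strongest member had a pooled signal of 154.803 and the weakest IDR peak one of 154.818. The 229 members whose larger replicate distance was 96 to 100 bp had a median signal of 79.6, and the 241 peaks at most 5 bp beyond that limit one of 72.9. Of the other weaker non-coding peaks, 35.4% still overlapped a peak in both replicates and missed the rule by the distance between summits alone.

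Most members lay away from start sites, in introns and between genes. Of all members, 19.9% (19.0 to 20.7) stood within 500 bp of an annotated start site, against 18.6% (17.9 to 19.2) of the other weaker non-coding peaks and 35.9% (34.7 to 37.0) of the IDR peaks; these and later intervals on shares are exact (Clopper-Pearson) 95% intervals that cover counting error over peaks only. Introns held 48.8% of the members, 48.6% of the other weaker non-coding peaks and 43.3% of the IDR peaks. Intergenic sequence held 27.9%, 28.7% and 18.4%, in the same order. More than 5 kb from any coding start site lay 41.4% of the members, 43.3% of the other weaker non-coding peaks and 27.8% of the IDR peaks. Of the summits within 500 bp of a coding start site, 62.5% were on its upstream side among members, 58.8% among the other weaker peaks and 85.2% among IDR peaks.

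Split by pooled signal into 4 strength classes of 2149 members each, the share near a start site was 24.2% in class 1, the strongest, 21.8% in class 2, 18.7% in class 3 and 14.8% in class 4, the weakest. Other weaker non-coding peaks of the same pooled ranks stood near a start site more often, with 32.5%, 29.9%, 23.4% and 16.4%. The intervals of members and other peaks do not overlap in classes 1 to 3; in class 1 they run from 22.4% to 26.1% for members and from 27.5% to 37.7% for the others. In class 4 they do overlap, at 13.4% to 16.4% and 15.7% to 17.2%. Within the rank range of a class the members were the stronger peaks, with a median pooled signal of 129.3 against 124.1 in the strongest class and of 59.4 against 51.5 in the weakest. The difference between members and other peaks was not tested.

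**Figure D2:**
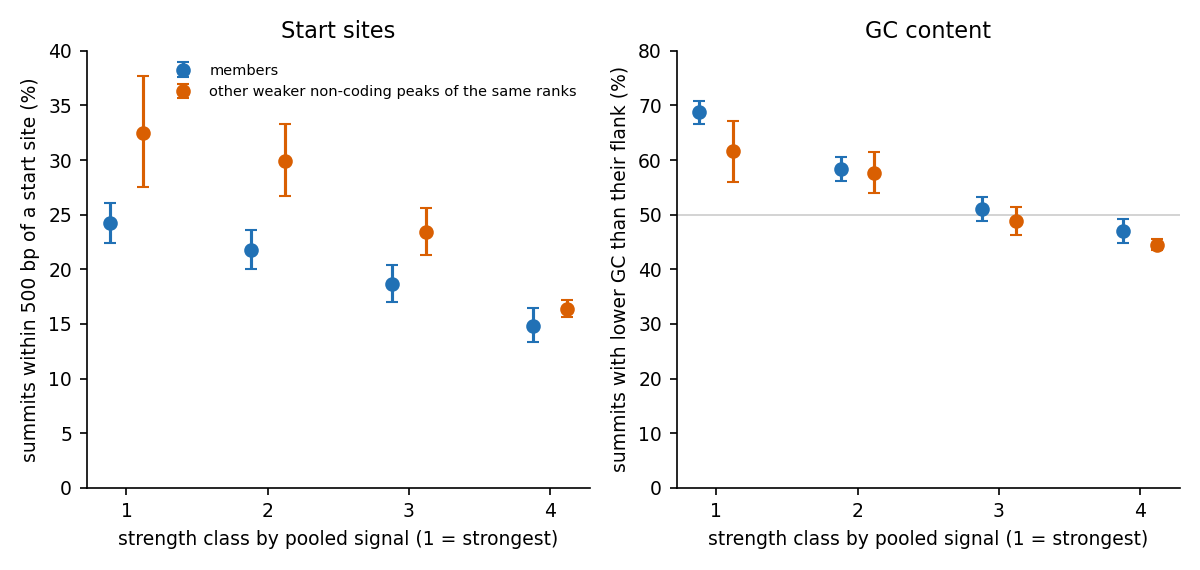
Left, share of summits within 500 bp of a start site; right, share of summits whose GC content was lower than that of their flank, both in percent, for members (blue, left of each pair) and other weaker non-coding peaks of the same pooled ranks (orange), by strength class. Bars are exact 95% intervals; both shares decline toward the weakest class in members and other peaks alike, and the members' share near a start site is the lower one in every class.

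The summits of the stronger members were rich in A and T. Over the 8067 members whose flank centre also lay outside coding exons, mean GC content was 38.4% within 50 bp of the summit and 40.9% in the flank 500 bp to the right, a difference of -2.50 percentage points (SD 14.6 over peaks), and the summit was the lower one in 56.2% of pairs (55.1 to 57.3). The other weaker non-coding peaks had 41.3% at the summit and 40.6% in the flank, and the IDR peaks 30.9% and 42.0%. The members' difference depended on strength: it was -6.74 points in the strongest class, -3.01 in class 2, -0.90 in class 3 and 0.53 in the weakest. The other weaker peaks of the same ranks had -5.20, -2.80, -0.56 and 1.32 points, so the difference followed pooled signal in members and other peaks alike. Centred on each replicate's own summits instead, the difference over all members was -1.91 points in replicate 1 and -2.44 in replicate 2. When recurrence was required in 1 replicate and not checked in the other, the sets grew and still held all members. The difference was then -1.68 points without replicate 1 (12439 pairs) and -1.02 without replicate 2 (13337 pairs). In the profile of GC content the lowest value lay at the summit in the 3 stronger classes of members, at 34.3%, 37.7% and 39.9%, and in the IDR peaks, at 30.4%. In the weakest class the summit had 41.0% and the lowest value, 40.9%, lay 600 bp to the right. The genome's mean was 42.2% over tiles of the same width as the summit windows.

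**Figure D3:**
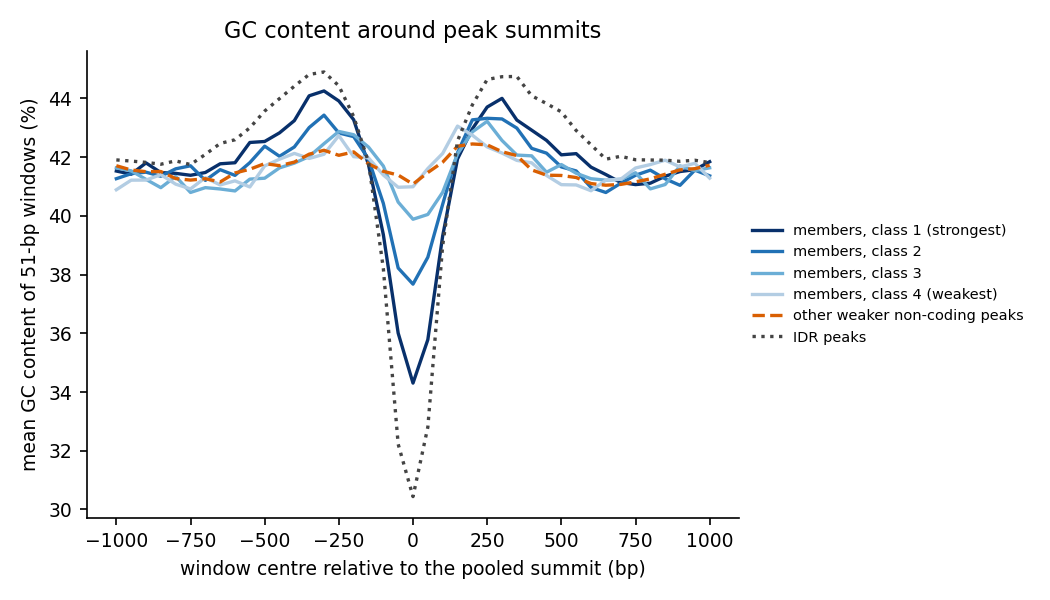
Mean GC content in percent of 51-bp windows, by distance of the window centre from the pooled summit, for the 4 strength classes of members (solid, darker is stronger), the other weaker non-coding peaks (dashed) and the IDR peaks (dotted). The dip at 0 bp deepens with strength, with 34.3% in the strongest class of members and 30.4% in IDR peaks; both are flanked by a rise on either side near 300 bp. In the weakest class the summit, at 41.0%, is not the lowest point.

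To ask which short words went with these summits, every hexamer, read on both strands, was compared between summit and flank over the same 8067 members. By the exact two-sided McNemar test with Benjamini-Hochberg adjustment, 256 hexamers (12.3%) were found in more summits than flanks and 271 (13%) in fewer. Among the other weaker non-coding peaks 17 (0.817%) were found more often and 10 (0.481%) less often. The 2 sets are not matched for strength, with a median pooled signal of 85.2 in members and 54.3 in the others. These p-values are over peaks of 2 libraries and say nothing of the spread between embryos, and overlapping hexamers are not independent of each other. The calls came from the stronger members: 258 more and 390 less in the strongest class, 50 and 34 in class 2, 6 and 0 in class 3 and 1 and 0 in the weakest, from 1988 to 2036 windows each. Other weaker peaks of the same ranks had 7 and 0, 2 and 0, 0 and 0, and 15 and 10, strongest class first. These came from 310, 702, 1457 and 9194 windows, so the counts of members and other peaks cannot be set side by side. Where recurrence was required in 1 replicate and not checked in the other, the counts were 244 more and 232 less without replicate 1. They were 140 and 108 without replicate 2. Where neither the summit nor the flank held a repeat-masked base, which left 1101 pairs, 3 were called more frequent and 1 less. Over all members 19.4% of bases were masked at summits and 17.0% in flanks; the part of repeats in the calls was not tested beyond this.

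Words with CACTG, or CAGTG on the other strand, formed one group among the hexamers that were more frequent. Of the 8 hexamers that hold it, 7 were called and the median fold, summits over flanks, was 1.54, against 0.951 for all hexamers. The group was chosen after these values were seen and its words share the same core, so the 2 medians are a description and no test. ACACTG was present at 513 summits (6.36%) and in 262 flanks (3.25%), 1.96-fold (exact test, adjusted p = 1.79e-17). CACTGA was found at 560 summits and in 331 flanks, 1.69-fold (exact test, adjusted p = 7.23e-13), and ACAGTG at 457 and in 263, 1.74-fold (exact test, adjusted p = 3.02e-11). CAGTGG, the eighth, was found at 452 summits and in 383 flanks and missed the threshold (exact test, adjusted p = 0.0602). GTGCAC, which reads the same on both strands, had the highest fold of all those called, 2.01, with 261 summits and 130 flanks (exact test, adjusted p = 1.23e-09). In tiles of the same width over the genome ACACTG was present in 3.74%, CACTGA in 4.12%, ACAGTG in 3.72% and GTGCAC in 2.05%.

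The CACTG group kept a median fold above 1 in every strength class. It was 1.48, 1.70, 1.34 and 1.50 from the strongest class to the weakest, 1.33 in the other weaker non-coding peaks and 0.951 at the IDR summits. ACACTG itself had 2.28, 2.20, 1.86 and 1.50 over the 4 strength classes, with 99 summits and 66 flanks in the weakest. In that class it was not called (exact test, adjusted p = 0.738). At IDR summits 4 of the 8 words had a fold above 1. ACACTG was the highest there, at 279 summits and in 204 flanks, 1.37-fold (exact test, adjusted p = 0.000825). CACTGG was the lowest there, 0.711-fold (exact test, adjusted p = 0.00158). In the other weaker peaks ACACTG was found at 591 summits and in 356 flanks, 1.66-fold (exact test, adjusted p = 1.43e-11), so its excess was not confined to members. The difference between members and other weaker peaks was not tested. In the pairs without a masked base only ACAGTG, at 2.17-fold (exact test, adjusted p = 0.0467), stayed past the threshold of the words of the group recomputed there. ACACTG had 1.97 (exact test, adjusted p = 0.0849), CACTGA 1.43 (p = 0.644) and CAGTGC 1.63 (p = 0.299) by the same exact test. Outside the group, GTGCAC had 1.94 there (exact test, adjusted p = 0.578).

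Plotted by distance, CACTG was most frequent beside the summit rather than on it. In the strongest class of members 15.1% of 51-bp windows centred 100 bp to the left held it and 15.3% of those 100 bp to the right, against 10.1% at the summit itself and 8.0% and 7.7% at 500 bp. IDR peaks showed the same shape more sharply, with 18.7% and 19.6% at 100 bp and 7.1% at the summit. In the weakest class of members the share at the summit was 10.1%, against 10.3% on both sides at 100 bp and 7.7% and 6.6% at 500 bp, with no dip at the centre. The comparison of summits with flanks, which reaches 50 bp either side, leaves out part of the windows where the word was most frequent.

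**Figure D4:**
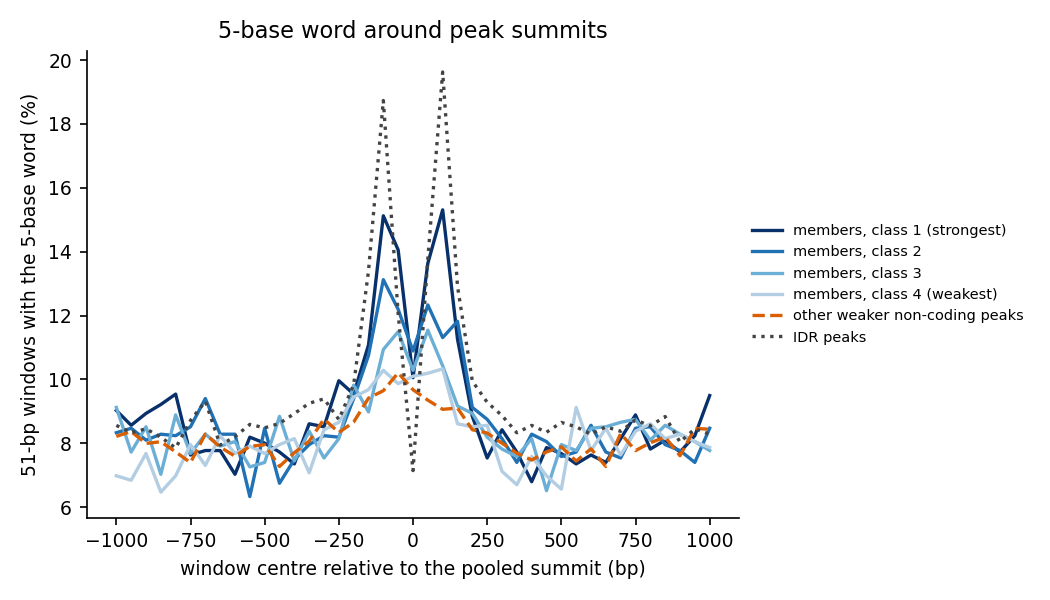
Share in percent of 51-bp windows that hold CACTG on either strand, by distance of the window centre from the pooled summit, for the 4 strength classes of members (solid, darker is stronger), the other weaker non-coding peaks (dashed) and IDR peaks (dotted). The strongest members reach 15.1% and 15.3% at 100 bp on either side with a dip to 10.1% at the summit, and IDR peaks 18.7% and 19.6% with a dip to 7.1%.

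The largest group of words by number was AT-rich. Of the 228 hexamers with at most 1 G or C, 144 were called more frequent and 2 less, and of the 228 with at least 5, none was called more and 64 less. AATATA was present at 1442 summits (17.9%) and in 932 flanks (11.6%), 1.55-fold (exact test, adjusted p = 1.64e-26), AAATAT at 2150 and in 1474, 1.46-fold (exact test, adjusted p = 5.45e-33). The median fold of the 228 AT-rich hexamers was 1.49 in the strongest class, 1.21 in class 2, 1.09 in class 3 and 0.974 in the weakest. It was 0.970 in the other weaker non-coding peaks, which were not matched to the members for strength, and 1.81 in IDR peaks. AATATA shows the same order with 2.01, 1.64, 1.36 and 1.18. In the pairs without a masked base it had 1.42 (exact test, adjusted p = 0.578). CCAGGA, among the words found less often, was present at 156 summits and in 269 flanks, 0.580-fold (exact test, adjusted p = 1.32e-06). GGTACC, with 47 summits and 24 flanks, passed the threshold narrowly (exact test, adjusted p = 0.0380) and its adjusted p was 0.992 in the pairs without a masked base.

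Among 10-base words, ACTGAGAAAA came first when words were ordered by their excess of member summits over flanks, divided by the square root of the sum of both counts. It was chosen after its counts were seen and is given without a test. It was present within 50 bp of 43 of the 8596 summits and in 4 of the flanks, against 29 summits and 10 flanks for the 12525 other weaker peaks and 35 summits and 4 flanks for the 6496 IDR peaks. In genome tiles it was found in 219 of 264642 (0.0828%). The 43 members were spread over the strength classes as 12, 11, 9 and 11, strongest first, and lay near 40 different genes, 24 between genes, 17 in introns and 2 near a start site. Windows of 4 strong members with the word are shown, with the word in capitals, to let its surroundings be compared.
caps (chr3L:13214944-13215044): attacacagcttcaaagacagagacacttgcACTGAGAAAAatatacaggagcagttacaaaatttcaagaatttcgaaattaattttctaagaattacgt
Toll-6 (chr3L:15334930-15335030): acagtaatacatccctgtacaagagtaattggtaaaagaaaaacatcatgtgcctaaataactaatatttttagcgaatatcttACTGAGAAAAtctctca
OdsH (chrX:17797038-17797138): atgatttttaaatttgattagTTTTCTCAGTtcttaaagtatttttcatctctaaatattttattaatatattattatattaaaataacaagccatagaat
Sfp70A4 (chr3L:13295818-13295918): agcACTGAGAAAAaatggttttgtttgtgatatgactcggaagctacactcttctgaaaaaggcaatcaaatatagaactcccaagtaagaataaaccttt

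In these windows caps had a pooled signal of 151.5, Toll-6 of 149.6, OdsH of 141.5 and Sfp70A4 of 139.2. The gene caps encodes a leucine-rich repeat protein of nerve and muscle target recognition, Toll-6 a Toll-family receptor and OdsH a homeodomain protein. Of the 4, the Toll-6 summit alone lay near a start site, which was that of lncRNA:CR43992, 198 bp away. The start site of Toll-6 itself was 1712 bp away.

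No class of E-box, the site of bHLH factors, passed the test as more frequent at member summits. Of the 17 fixed motifs, 2 (11.8%) passed the test as more frequent and 1 (5.88%) as less, the last of these an E-box class. CATATG was present at 320 summits and in 264 flanks, 1.21-fold (exact test, adjusted p = 0.0890); the exact test's adjusted p lay between 0.0144 and 0.571 over 15 alternatives and passed in 4 of them. CAGCTG was found at 313 summits and in 333 flanks, 0.940-fold (exact test, adjusted p = 0.450). CAAATG, found at 840 summits and in 951 flanks, was the class called less frequent, 0.883-fold (exact test, adjusted p = 0.0331), a call that was lost in 8 of 15 alternatives. Of the other 7 classes, the folds ran from 0.777 for CACGTG to 0.956 for CAAGTG. From the strongest class to the weakest, CATATG had 1.47, 1.13, 1.04 and 1.24, none past the threshold. Among the other weaker non-coding peaks, not matched for strength, only CACCTG was called more frequent. It was found there at 397 summits and in 317 flanks, 1.25-fold (exact test, adjusted p = 0.0463). At IDR summits every class had a fold below 1, from 0.302 for CACGTG to 0.987 for CATATG. In genome tiles CATATG was found in 2.78%, CAGCTG in 4.24% and CAAATG in 10.1%. A word is counted wherever its letters occur and is no evidence of a bound site.

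Motifs called more frequent were the GATA site, that is GATA preceded by A or T and followed by a purine on either strand, at 1540 summits and in 1362 flanks, 1.13-fold (exact test, adjusted p = 0.00236), and the Mef2-like site, a run of 8 bases with TA at its start, ATA at its end and any of A or T between, at 1155 and in 836, 1.38-fold (exact test, adjusted p = 7.35e-13). GATA was the weaker of the 2: its fold was 1.47 in the strongest class and 0.942 in the weakest, and it was 0.941 in the weaker 4298 members (exact test, adjusted p = 0.515). The Mef2-like site had 1.85 and 1.02 in those classes, and 1.15 in the weaker 4298 members (exact test, adjusted p = 0.515). Neither was called in the pairs without a masked base. Both sites consist mostly or wholly of A and T, and the AT-rich word AATATA had 2.01 in the strongest class and 1.18 in the weakest. Whether the excess of either site goes beyond that of AT-rich words in general was not tested. In genome tiles GATA was found in 16.5% and the Mef2-like site in 9.60%. Of the sites common at start sites, DRE, the DNA replication-related element, was present at 27 summits and in 13 flanks, 2.08-fold (exact test, adjusted p = 0.109), and Motif 1 at 13 and in 4, 3.25-fold (exact test, adjusted p = 0.119); neither passed.

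The member of highest signal with CATATG was the Nlg1 one above, and the one with CAGCTG lay 96 bp upstream of a start site of stc (signal 153.5 in the pooled list). The window is shown with CAGCTG in capitals.
stc (chr2L:15113334-15113434): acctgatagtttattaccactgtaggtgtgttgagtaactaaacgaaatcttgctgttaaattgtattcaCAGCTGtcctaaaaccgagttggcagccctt

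Members lay at a median of 4973 bp from the nearest IDR summit, with quartiles of 1954 and 12971 bp. Within 1 kb were 9.68% and within 5 kb 50.2%. The other weaker non-coding peaks had a median of 5575 bp, with quartiles of 2109 and 14265 bp. By strength class, strongest first, the medians of members were 4334, 4496, 5067 and 6297 bp. Other weaker peaks of the same ranks had 4365, 3628, 4270 and 6026 bp. Of the members 36.3% (35.3 to 37.3) were tied to a coding gene, by nearest start site, that has no IDR peak. In all, 3860 of 13945 coding genes (27.7%) were nearest to at least 1 member. Of these, 1810 (46.9%) also had an IDR peak and 2050 (53.1%) had none. Among all coding genes, 3532 (25.3%) had an IDR peak, so genes with a member had one more often than coding genes in general. Genes with 5 or more members numbered 396 and held 2963 members (34.5%). Gene size bears on such counts: the stretch in which a summit is tied to a gene had a median of 17.4 kb for genes with members and IDR peaks and of 8.19 kb for genes with members only, against 4.24 kb for all coding genes.

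The gene with the most members was hth (FBgn0001235), which encodes a TALE homeodomain cofactor of Hox proteins. It was nearest to 35 members and 13 IDR peaks in a stretch of 133.9 kb, and 28 of the members were in introns. Their pooled signal ran from 46.9 to 151.9 with a median of 76.0. The strongest (3R, summit 10579784) had 151.9, at rank 9766 in replicate 1 and 5584 in replicate 2, and the next (summit 10624562) 151.6, at ranks 7086 and 6717. The weakest (summit 10636825) had 46.9, at ranks 29526 and 29587, near the end of both lists.

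Next came fz2, a Wnt receptor gene, and plh, each with 24 members. At fz2 the signal ran from 48.0 to 153.6 with 12 IDR peaks, and at plh from 58.3 to 144.4 with 3 IDR peaks in 51.2 kb. Members per 100 kb were 46.8 at plh and 25.8 at fz2. The value was 12.9 over genes with members and IDR peaks, and 6.42 over all coding genes. Both genes were picked for their number of members, so these values are a description and no test. Further genes with many members were CG42238 (20), bun, a TSC22-family transcription factor gene (19), CG43658 (19), olf413 (18), CG43188 (17), Tet, a methylcytosine dioxygenase gene (17), and rdx, a gene of a Cullin-3 adaptor (16). At rdx 15 IDR peaks lay beside the 16 members, and at olf413 1 beside 18. CG43188 is a short gene (2R, 11085586 to 11088300), and its 17 members, in introns, were spread from 11028920 to 11093120, so most lay outside its own body.

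Genes with many members and no IDR peak were led by comm, which acts at the midline to keep Robo receptors from growth cones. Its 13 members lay in a stretch of 45.3 kb, 12 between genes and 1 in an intron, with signals from 53.0 to 140.9 and a median of 77.4. The strongest (3L, summit 15766333), 37903 bp upstream of comm, had rank 5811 in replicate 1 and 10846 in replicate 2. It lay 2771 bp from an IDR summit that is tied to another gene. A gene without an IDR peak here is one whose start site is nearest to none, so IDR peaks can still lie close to its members. The gene bru3, of a Bruno-family RNA-binding protein, had 11 members in 227.4 kb, with signals up to 97.6. The gene en, of the engrailed homeodomain protein, had 8 members with signals from 56.1 to 88.1. The others of this group were Ugt37B1, CG42287, trv, CG33259 and smal with 8 each, and CG43233 and Ir67c with 7 each.

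Oli itself (FBgn0032651) was nearest to 5 members, all upstream, and to 7 IDR peaks in a stretch of 18.7 kb. Their distances to its start site were 4713, 4431, 8554, 14867 and 6759 bp, in order of signal, which ran from 150.5 to 82.0. The strongest (2L, summit 17584471) had a signal of 82.2 in replicate 1 and 62.0 in replicate 2. The one at 17580630 had 89.1 and 21.7, at ranks 6506 and 26888, so it was strong in replicate 1 and near the end of the list in replicate 2. The fusion transgene's own sequence cannot be told apart from the locus in these lists.

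The 15 members of highest signal were tied to Pgm2a, Vha68-3, Nlg1, Prx1, CG12672, Hr38, mtgo, CG43089, Tollo, CG7320, CG14565, CG12290, fok, BigH1 and red. All had a pooled signal between 154.3 and 154.8, and each stood between rank 4719 and 11366 in a replicate. CG43089 had rank 11366 in replicate 1 and 4719 in replicate 2, and fok 5724 and 10057. Hr38 encodes an orphan nuclear receptor, Tollo a Toll-family receptor and BigH1 an embryonic linker histone. Pgm2a and CG14565 were the 2 with the summit near a start site.

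Of 20 gene lists, 17 had a larger share of genes with at least 1 member than the 27.7% of all coding genes. The lists differ in gene size, and their medians of the tied stretch, 2.05 to 45.2 kb, stand against 4.24 kb over all genes, so the shares are not size-matched; no test was made. Motor neuron identity genes had the highest share, 14 of 16, with a median stretch of 32.6 kb. In this list Ubx had a peak of signal 153.5 in an intron, Oli one of 150.5 and grn, a GATA factor gene, one of 147.1. The Ubx peak (3R, summit 16718216) had a signal of 94.5 in replicate 1 and 62.8 in replicate 2, and the grn peak (3R, summit 8156055) 69.5 and 75.6. Of 28 axon guidance genes 22 had a member, among them drl, a Ryk-family receptor gene (signal 154.2), Sema2b (150.6) and robo1 (150.1). The drl peak (2L, summit 19190456), 114 bp downstream of a start site, had a signal of 99.1 in replicate 1 and 57.1 in replicate 2.

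In other neural lists, 10 of 13 temporal identity genes had a member, led by Imp (138.2), chinmo (138.0) and grh (133.2), and 10 of 15 columnar and interneuron homeobox genes, led by vnd (146.7), Dr (139.8) and Awh (116.0). Of the 17 neuroblast division genes 11 did, with mira at 148.3, dlg1 at 145.0 and esg at 143.7. Synaptic genes had 14 of 26, among them VGlut (148.3), elav (143.4) and para (117.5), although 6 of the 26 had an IDR peak. Glial genes had 7 of 14, with ttk (152.1), pnt (149.4) and nrv2 (147.1). Proneural bHLH genes, in contrast, had 4 of 20 with a median stretch of 6.97 kb; the 3 with the highest peaks were emc (101.6), Fer1 (98.8) and ase (91.8).

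In muscle, 12 of 18 transcription factor genes had a member, led by mid (140.8), pnr (118.3) and Mef2 (113.9), and 16 of 25 sarcomere and fusion genes, with Actn (146.2), blow (141.1) and kirre (138.1). The Mef2 peak had rank 29899 in replicate 1 and 5790 in replicate 2. Of the gut genes 10 of 12 had one, with hth (151.9), fkh (147.0) and esg (143.7), and of the trachea genes 12 of 15, with pnt (149.4), trh (142.3) and knrl (140.2). Hox and cofactor genes had 8 of 10, with Ubx (153.5), hth (151.9) and lab (141.6), and segment polarity and pair-rule genes 11 of 19, with nkd (154.3), ci (152.3) and wg (145.2). Hemocyte genes had 6 of 14, led by ush (152.6), vkg (139.0) and srp (131.6). Notch pathway genes had 8 of 20, with N (128.2), mam (126.2) and neur (123.3).

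Lists of chromatin, cell cycle, ribosome and receptor genes follow. Polycomb and trithorax genes had 11 of 25, with Su(z)12 (146.9), psq (143.0) and jing (135.1), and cell cycle genes 9 of 23, with E2f1 (151.7), CycB3 (137.1) and fzr (134.3). The E2f1 peak (3R, summit 21659301) was at rank 6632 in the pooled list but at 17264 in replicate 1 and 14696 in replicate 2, with signals of 40.3 and 33.7. Of the 82 cytoplasmic ribosomal protein genes 10 (12.2%) had a member, among them RpL40 (146.9) and RpLP2 (138.8), while 59 had an IDR peak. Their median stretch was 2.05 kb. Of 120 smell and taste receptor genes 21 (17.5%) had one, with Or45b (147.0), Gr93a (129.8) and Or67d (129.1), and 10 had an IDR peak. The Gr93a peak had a signal of 27.1 in replicate 1 and 87.9 in replicate 2.

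Per length of the tied stretch, gut genes had 19.4 members per 100 kb, glial genes 16.0, motor neuron identity genes 12.9 and trachea and Hox genes 12.4 each, against 6.42 over all coding genes. Below that value were the smell and taste receptors with 4.83, the proneural bHLH genes with 3.38, the synaptic genes with 2.82 and the ribosomal protein genes with 2.78. The gene hth, with 35 members, is in both the gut and the Hox lists and makes up much of their totals of 60 and 65.

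**Figure D5:**
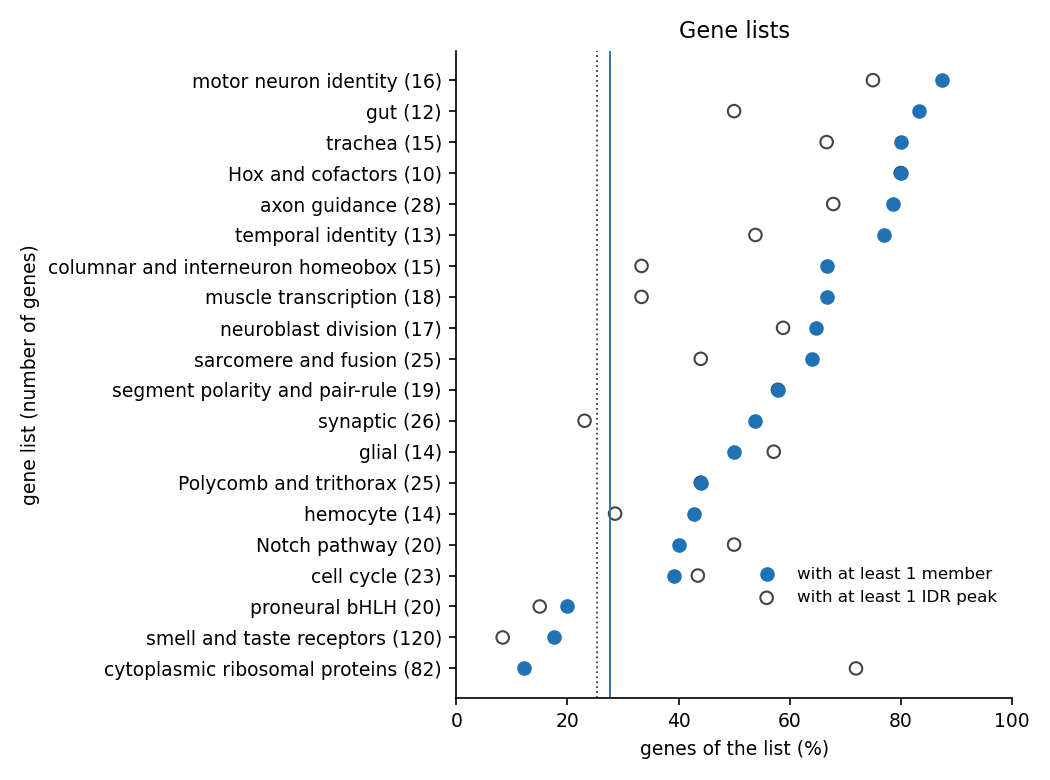
Share in percent of the genes of each list that were nearest to at least 1 member (filled points) and to at least 1 IDR peak (open points), with the number of genes of the list in parentheses. The solid line is the share of all coding genes with a member, 27.7%, and the dotted line the share with an IDR peak, 25.3%; 17 lists lie right of the solid line, and the ribosomal protein list has the lowest share with a member, 12.2%.

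Members were spread over the chromosome arms at 71.1 per Mb on 2L, 58.4 on 2R, 69.9 on 3L, 61.9 on 3R and 62.9 on X, with 14 members on chromosome 4. The other weaker non-coding peaks had 76.8 per Mb on X and 85.2 to 107 on the 4 large autosome arms.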

How the data were processed

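Per the file notes, the authors deposited peak lists on dm6 for each replicate, for the pooled replicates and after the IDR threshold; all were made with the same control. Which aligner and peak caller made them is not given here. The deposited signal of each peak was used to rank and describe the peaks of each list. The deposited -log10 q-value was not used for ranking, and no limit on it was set for members. Read depth is unknown. Each list but the IDR one holds 30000 peaks, so recurrence means presence within that length.

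The members, motifs and 20 gene lists were chosen with earlier results of these data known. List names that matched no gene or repeated one were dropped after matching; 532 entries matched and 1 name did not. Named genes are those nearest to the 15 strongest members, the 10 with most members, the 10 with most members and no IDR peak, up to 3 per list, and Oli. Genes named for a single extreme value (nop5, bon), the genes of the printed 10-base word, the hexamers and the 10-base word were chosen after their values were seen.

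Coding exons and start sites came from Ensembl release 115, without transposable elements, and the coding gene whose start site lay nearest was taken as the gene of a summit. Coordinates count from 1. Windows reached 50 bp either side of the summit, and the flank was centred 500 bp to the right, outside coding exons. Summits and flanks were compared by the exact two-sided McNemar test with Benjamini-Hochberg adjustment (threshold 0.05), in Python 3.11.15 with scipy 1.17.1, numpy 2.4.6 and pandas 2.3.3, tested on simulated data. Alternatives included each window, flank and distance, leaving out each replicate, and others chosen after seeing the data (summits of each replicate, the weaker 4298 members, windows without a repeat-masked base, by the RefSeq soft mask).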

Additional observations from a re-analysis of the deposited data

How the results depend on the processing

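No paired analysis was possible because the 2 replicates form 1 group with no second condition. With 2 replicates of unknown depth, few calls in the weaker members do not show that a word is absent there. The cause of the changes below was not tested, except that fewer windows were compared where members were left out.

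Asking for recurrence in 1 replicate, without regard to the other, gave the following ranges over the replicate left out. The GC difference was -1.68 to -1.02 percentage points. Hexamers more frequent numbered 140 to 244 and those less frequent 108 to 232. Motifs numbered 3 to 4 more and 0 to 1 less. The median distance to the nearest IDR summit was 5084 to 5181 bp. Near a start site lay 18.8% to 20.5%, and 36.6% to 37.0% were tied to a gene without an IDR peak. In the 3998 pairs of the stronger 4298 members the GC difference was -4.87, with 444 hexamers and 4 motifs less frequent, a distance of 4402 bp, 23.0% near a start site and 34.9% without an IDR peak. In the 4069 pairs of the weaker members these were -0.181, 2 hexamers less and 14 more, 0 motifs either way, 5650 bp, 16.8% and 37.6%.

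The GC difference was -3.33 with any flank, -1.91 on replicate 1 summits, -2.08 with the flank at 1000 bp, -1.66 without masked bases, -3.31 beyond 500 bp of a start site and -1.77 with windows of 100 bp either side; it was below 0 in each alternative. Hexamers less frequent numbered 474 with any flank, 169 on replicate 1 summits, 158 with the flank at 1000 bp, 1 without masked bases, 114 with recurrence within 50 bp and 83 with windows of 25 bp. Hexamers more frequent numbered 3 without masked bases, 151 with recurrence within 50 bp and 125 with windows of 25 bp. Motifs less frequent numbered 0 with any flank, on either replicate's summits, with the flank at 1000 bp and with recurrence within 50 bp, and 3 with the flank on the left or recurrence within 200 bp. Motifs more frequent numbered 4 with any flank or windows of 100 bp, 5 with recurrence within 200 bp, 1 with the flank at 1000 bp or windows of 25 bp, and 0 without masked bases.

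The share near a start site was 30.0% within 1000 bp and 11.7% within 200 bp. The share tied to a gene without an IDR peak was 31.0% by nearest gene body and 44.4% within 10 kb. GATA turned to 0.941-fold in the weaker members. CAGCTG, not called, turned to 1.03-fold on replicate 2 summits, 1.02 with the flank at 1000 bp, 1.04 in the weaker members and 1.02 with windows of 25 bp. Of the 20 gene lists, 17 stayed above the share of all coding genes in the 3 alternatives tried. No fold could be given for DRE in the pairs without a masked base, since no flank held it.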
